A study of Mus musculus with 8 samples.

Results

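Siglecs are lectins on the surface of immune cells that bind sialic acid, and 5 mouse genes of this family are described here: Cd33, Siglech, Siglece, Siglec1 and Cd22. They are 5 of the 54854 genes in the deposited count table and were chosen by their counts in treated and control glands, which were already known to differ, so their treatment values are a description and carry no test of their own. RNA of the whole pituitary was profiled by stranded mRNA sequencing in 8 C57BL/6N mice at 5 weeks of age, with 4 mice in each group and 1 library per gland. The anti-CD115 group received AFS98, an antibody that blocks CD115, the product of Csf1r, a growth factor receptor on which many macrophages depend. The isotype control group received rat IgG2a. In both groups the dam was given 3 mg at embryonic day 6.5. Pups were injected on postnatal day 2 (100 µg) and day 14 (150 µg) and again at 4 weeks (200 µg). Each group held 1 female, numbered replicate 1, and 3 males, numbered replicates 2 to 4. The number of dams and litters is not given in the sources used here, so litter and treatment cannot be told apart.

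Each Siglec has a sialic acid-binding immunoglobulin domain outside the cell, and most act through a short tail inside it. In inhibitory Siglecs the tail carries a tyrosine motif (ITIM) that recruits the phosphatases SHP-1 and SHP-2 once Src-family kinases have phosphorylated it. Some Siglecs without such a motif pair with the adaptor DAP12, encoded by Tyrobp, which signals through the kinase Syk. Cd33 and Siglece belong to the rapidly evolving CD33-related branch found on myeloid cells, and Siglech is known from plasmacytoid dendritic cells and microglia and pairs with DAP12. Siglec1, or sialoadhesin, is an adhesion receptor of macrophages, and Cd22 is an inhibitory co-receptor of B cells.

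The tails of the 5 genes differ in the tyrosine motif, whose absence does not by itself mean pairing with DAP12. The last 150 codons of the longest annotated coding sequence of each gene (GENCODE M21, GRCm38) were searched for codons spelling the ITIM pattern, that is, isoleucine, leucine, valine or serine, any residue, tyrosine, any 2 residues, then isoleucine, leucine or valine. Cd22 held 4 such stretches in 868 codons and Siglece held 1 in 467 codons. Cd33, Siglech and Siglec1 held 0 in their last 150 codons. The matching stretches are shown 5′ to 3′, numbered by the codon of the tyrosine, with that codon in capitals.
Siglece, codon 432: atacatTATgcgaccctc
Cd22, codon 783: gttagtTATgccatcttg
Cd22, codon 817: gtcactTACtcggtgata
Cd22, codon 843: atccatTACtcagagctg
Cd22, codon 863: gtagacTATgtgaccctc
These are matches to a pattern of codons, and a stretch without a match says only that the pattern was not there.

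Promoters were available for 4 of the 5 genes, as the 250 bases before the RefSeq start (GRCm38.p6), with no entry for Siglec1. They were searched on both strands for GAGGAA, the core bound by the myeloid transcription factor PU.1. The PU.1 core occurred 1 time in the Cd33 window and 3 times in the Siglece window, and 0 times in those of Siglech and Cd22. It occurred in 23.3% of all 32851 windows of that length, so a match is common. A repeat bound by interferon regulatory factors, searched in the same way, was in 0 of the 4 windows and in 2.98% of all windows. The 2 windows with a PU.1 match are shown for those matches alone. In control glands Siglech, with 0 matches, had 235 reads, against 183 for Siglece and 423 for Cd33. Per listed gene length, the order differed, with 0.603 FPKM for Siglech, 0.862 for Siglece and 0.473 for Cd33. Whether matches go with level was not tested. Both windows shown lie on the minus strand and are written 5′ to 3′ towards the start. Capitals mark the core, read as TTCCTC where it lies on the opposite strand, 226 bases before the start in Cd33 and 87, 36 and 11 bases before it in Siglece.
Cd33, chr7:43533172-43533421: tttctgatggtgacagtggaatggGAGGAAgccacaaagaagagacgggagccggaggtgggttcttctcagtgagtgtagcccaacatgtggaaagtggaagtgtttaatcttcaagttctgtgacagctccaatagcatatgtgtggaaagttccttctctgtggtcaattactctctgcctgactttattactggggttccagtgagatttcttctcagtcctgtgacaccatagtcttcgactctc
Siglece, chr7:43660162-43660411: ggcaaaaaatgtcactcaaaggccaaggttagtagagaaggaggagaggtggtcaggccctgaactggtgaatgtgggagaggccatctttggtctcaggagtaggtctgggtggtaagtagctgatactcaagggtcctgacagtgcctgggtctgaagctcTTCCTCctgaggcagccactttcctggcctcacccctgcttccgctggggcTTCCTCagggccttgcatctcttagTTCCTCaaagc
The Cd33 window lies within the gene as the count table bounds it, which starts further upstream. A match is a description of these letters and was not linked to binding.

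Sequence shared between the 5 genes bears on how reads are assigned to them. Of the distinct 50-base words in their annotated transcripts, 0 were shared between any 2 of the 5 genes. Only exact words were compared, so similar stretches with mismatches were not counted and misassigned reads are not excluded. Words shared with any other gene made up 0.458% for Cd33, 0.389% for Siglech, 0% for Siglece and 1.33% for Siglec1. For Cd22 the share was 7.84%, spread over 69 other genes. The smaller shares of Cd33, Siglech and Siglec1 were spread over more, at 336, 195 and 139 other genes. Cd22 alone of the 5 overlaps another gene of the count table, Gm29439, which had 0 counts in all 8 libraries. Cd33 (chr7:43524216-43544428, minus strand, GRCm38) and Siglece (chr7:43651070-43660161, minus strand) lie 107 kb apart. Siglech (chr7:55768178-55778925, plus strand) lies 12.1 Mb from Siglece, and Cd22 (chr7:30865402-30880342, minus strand) lies 12.6 Mb from Cd33. Siglec1 lies on another chromosome (chr2:131069220-131086765, minus strand).

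Libraries held between 23289819 and 36218096 counts, and values below are CPM, counts per 1e6 counts after scaling by the trimmed mean of M values (TMM), unless FPKM is named. A count of 3 was worth 0.0881 to 0.126 CPM, so the low Siglec values in treated glands rest on few reads. Replicates within a group correlated at r = 0.981 to 0.992 across genes, which are not independent replicates. The 7 pituitary hormone genes summed to 206000 to 297000 CPM in anti-CD115 libraries and 235000 to 294000 CPM in isotype control libraries, and 0 of 7 passed the treatment test. The smallest p among them was that of Lhb, the luteinizing hormone beta chain (log2 change -0.58, SE 0.20, edgeR adjusted p = 0.345), which passed without anti-CD115 replicate 3 (log2 change -0.84, adjusted p = 0.0112) and on unfiltered counts (adjusted p = 0.00134). Csf1r, the target of the antibody, stood at 4.18 ± 2.52 CPM in anti-CD115 glands and 32.9 ± 6.86 CPM in isotype control glands (SD, n = 4 each).

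All 5 Siglec transcripts were lower in anti-CD115 glands, by 4.00 to 10.4 times, and in none of the 5 did a treated library reach the lowest control library. In whole glands, fewer cells of a type and less RNA per cell cannot be told apart. All 5 passed edgeR's quasi-likelihood test with Benjamini-Hochberg adjustment over the 17723 genes tested, where 0.829% of genes were called lower, and their groups did not overlap, as for 3.31% of genes tested with all treated libraries lower. The genes were picked with this contrast known, so nothing is read from those counts. All 5 also owed their place among the genes tested to the control libraries. The filter asked for 0.362 CPM in at least 4 libraries, which 4 of 4 control libraries passed for every gene, against 2 of 4 treated libraries for Cd33 and Siglech and 0 of 4 for Siglece, Siglec1 and Cd22.

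**Figure D1:**
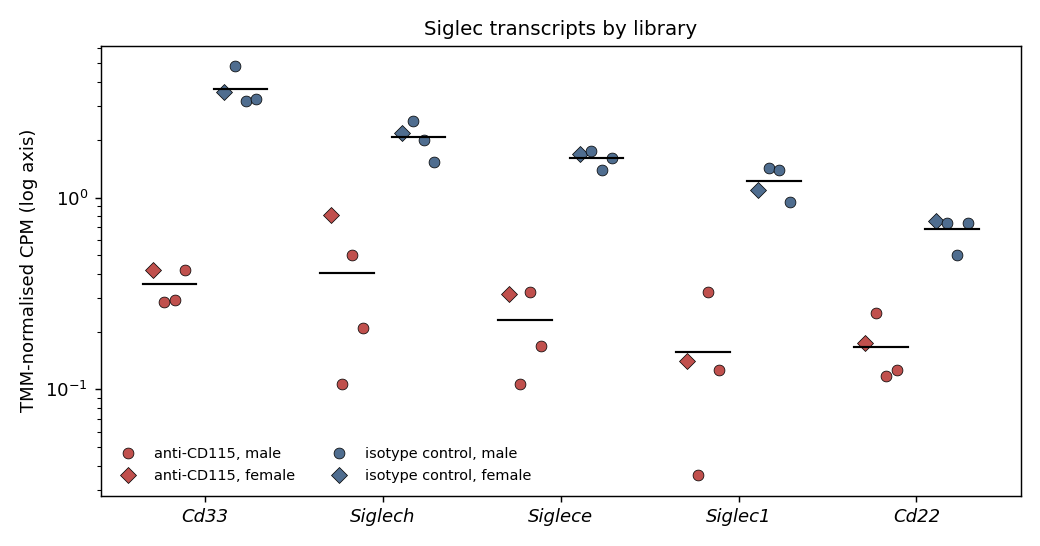
TMM-normalised CPM (log axis) of the 5 Siglec genes, anti-CD115 libraries left and isotype control libraries right within each gene, 1 point per library, diamonds for females, circles for males and a line at each group mean. For each gene all 4 anti-CD115 points lie below all 4 isotype control points, with the widest empty band for Cd33 and the widest scatter among treated glands for Siglech and Siglec1.

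Cd33, the founding member of its branch and a receptor of myeloid cells, had the most reads and the largest change of the 5. Its counts were 12, 8, 10 and 10 in anti-CD115 replicates 1 to 4, against 84, 138, 108 and 93 in isotype control replicates 1 to 4. That is 0.421, 0.286, 0.294 and 0.421 CPM in anti-CD115 glands, against 3.53, 4.83, 3.20 and 3.25 CPM in isotype control glands. The 4 treated glands lay close together, and the lowest control was 7.60 times the highest treated gland. Means were 0.355 ± 0.0757 CPM in anti-CD115 glands and 3.70 ± 0.765 CPM in isotype control glands (SD, n = 4 each), a log2 change of -3.38 (SE 0.26, edgeR adjusted p = 0.000453). This left 9.6% of the control level and was the 3rd largest fall among all genes tested, after Lilra5 (-4.49) and Gpr65 (-3.75). The coefficient of variation of Cd33 among treated glands was 21.3%, below the 31.6% that counting error alone gives at these counts. Its call held on leaving out each library in turn, with log2 changes between -3.50 and -3.21.

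Siglece, an inhibitory receptor of mouse neutrophils, monocytes and macrophages, had the steadiest control level. It was counted 9, 3, 11 and 4 times in anti-CD115 replicates 1 to 4, against 40, 50, 47 and 46 times in isotype control replicates 1 to 4. These were 0.316, 0.107, 0.323 and 0.168 CPM in anti-CD115 glands, against 1.68, 1.75, 1.39 and 1.61 CPM in isotype control glands. Replicates 1 and 3 were the higher pair of treated glands, and the lowest control was 4.31 times the highest of them. Siglece averaged 0.229 ± 0.108 CPM in anti-CD115 glands and 1.61 ± 0.154 CPM in isotype control glands (SD, n = 4 each; log2 change -2.77, SE 0.33, edgeR adjusted p = 0.0025). The treated mean was 14.2% of the control mean. Its call also held on leaving out each library in turn, with log2 changes between -3.06 and -2.54.

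Siglech, the DAP12-pairing receptor, varied most among treated glands. Its counts were 23, 3, 17 and 5 in anti-CD115 replicates 1 to 4, against 52, 72, 67 and 44 in isotype control replicates 1 to 4. In CPM these were 0.807, 0.107, 0.499 and 0.210 in anti-CD115 glands, against 2.18, 2.52, 1.99 and 1.54 in isotype control glands. The anti-CD115 female was the highest treated gland, and the lowest control exceeded it 1.91 times. The coefficient of variation was 77.5% in treated glands, where counting error gives 28.9%, and 19.9% in control glands, where it gives 13%. Siglech averaged 0.406 ± 0.315 CPM in anti-CD115 glands and 2.06 ± 0.410 CPM in isotype control glands (SD, n = 4 each; log2 change -2.39, SE 0.41, edgeR adjusted p = 0.0219), which left 19.7%. Leaving out anti-CD115 replicate 3 (adjusted p = 0.0505) or 4 (0.0876), or isotype control replicate 2 (0.0678) or 3 (0.0561), ended the call.

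Siglec1, like Cd33, Siglece and Siglech, was lowest in anti-CD115 replicate 2. It was counted 4, 1, 11 and 3 times in anti-CD115 replicates 1 to 4, against 26, 41, 47 and 27 times in isotype control replicates 1 to 4. This is 0.140, 0.0357, 0.323 and 0.126 CPM in anti-CD115 glands, against 1.09, 1.43, 1.39 and 0.944 CPM in isotype control glands. Replicate 3 held most of the treated reads and replicate 2 had a lone read, and the lowest control was 2.92 times the highest treated gland. The means were 0.156 ± 0.120 CPM in anti-CD115 glands and 1.22 ± 0.237 CPM in isotype control glands (SD, n = 4 each; log2 change -2.87, SE 0.45, edgeR adjusted p = 0.0125), with 12.9% left. Leaving out anti-CD115 replicate 4 ended the call (adjusted p = 0.0580), as did leaving out isotype control replicate 1 (0.0539) or both females (0.0504). The latter fits are the same contrast of males, since the sex term takes up a female left alone. Leaving out anti-CD115 replicate 1 repeats that contrast too, at an adjusted p of 0.0475. Without anti-CD115 replicate 3 the log2 change was -3.55, over 1.5 times further on the linear scale.

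Cd22, the B cell co-receptor, had the fewest reads in control glands and the smallest change of the 5. Its counts were 5, 7, 4 and 3 in anti-CD115 replicates 1 to 4, against 18, 21, 17 and 21 in isotype control replicates 1 to 4. That is 0.175, 0.250, 0.117 and 0.126 CPM in anti-CD115 glands, against 0.756, 0.735, 0.504 and 0.734 CPM in isotype control glands. The lowest control, replicate 3, was 2.01 times the highest treated gland, replicate 2. Means were 0.167 ± 0.0608 CPM in anti-CD115 glands and 0.682 ± 0.119 CPM in isotype control glands (SD, n = 4 each; log2 change -2.0, SE 0.37, edgeR adjusted p = 0.0318), which left 24.5%. The spread among glands was within counting error in both groups, at 36.3% against a counting value of 45.9% in treated glands and 17.5% against 22.8% in control glands. The call held without anti-CD115 replicate 2 (adjusted p = 0.0461) and ended on leaving out any other library. Those adjusted p values were 0.133, 0.122 and 0.109 without anti-CD115 replicates 1, 3 and 4, and 0.15, 0.101, 0.0510 and 0.107 without isotype control replicates 1, 2, 3 and 4, with 0.140 in males alone. Leaving out replicate 1 of either group, a female, repeats the contrast of males alone.

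Levels can be set against each other per gene length, for which the authors' FPKM (fragments per kilobase of gene and per library size) was used. On that scale the order in isotype control glands was Siglece, Siglech, Cd33, Siglec1 and Cd22, although Cd33 had the most reads, its listed length being 7771 bases against 1849 bases for Siglece. The longest coding sequences were closer, at 1209 bases for Cd33 and 1401 bases for Siglece. The order thus rests on the listed lengths. Siglece stood at 0.123 ± 0.0579 FPKM in anti-CD115 glands and 0.862 ± 0.0870 FPKM in isotype control glands (SD, n = 4 each). Siglech stood at 0.119 ± 0.0924 FPKM in anti-CD115 glands and 0.603 ± 0.121 FPKM in isotype control glands, and Cd33 at 0.0455 ± 0.00972 FPKM in anti-CD115 glands and 0.473 ± 0.0991 FPKM in isotype control glands. The lower pair were Siglec1, with 0.0218 ± 0.0167 FPKM in anti-CD115 glands and 0.169 ± 0.0325 FPKM in isotype control glands, and Cd22, with 0.0330 ± 0.0120 FPKM in anti-CD115 glands and 0.134 ± 0.0241 FPKM in isotype control glands. In control glands the ranges of Siglece and Siglech met at 0.741 FPKM, those of Siglech (0.452 to 0.741) and Cd33 (0.405 to 0.618) overlapped, and so did those of Siglec1 (0.131 to 0.2) and Cd22 (0.0983 to 0.149). Only the step between Cd33 and Siglec1 was clear of overlap in control glands. In anti-CD115 glands the means of Siglece and Siglech were nearly equal and Cd22 stood above Siglec1, all within the spread between glands.

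**Figure D2:**
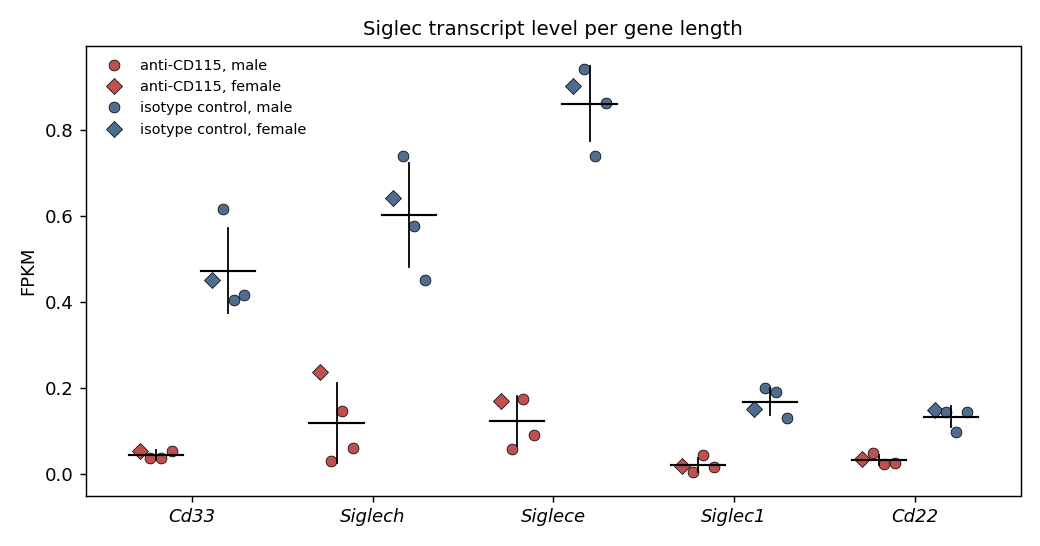
FPKM of the 5 Siglec genes (linear axis), anti-CD115 libraries left and isotype control libraries right within each gene, with the mean and SD of 4 libraries as bars, diamonds for females and circles for males. In isotype control glands Siglece averages 0.862 FPKM and Cd22 0.134 FPKM, whereas in anti-CD115 glands all 5 means lie at or below 0.123 FPKM.

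The make-up of the Siglec reads was compared within libraries. The 5 genes together gave 53, 22, 53 and 25 reads in anti-CD115 replicates 1 to 4, against 220, 322, 286 and 231 reads in isotype control replicates 1 to 4. Cd33 supplied 40 of 153 pooled reads in anti-CD115 glands (26.1%, exact binomial 95% interval 19.4% to 33.9%) and 423 of 1059 in isotype control glands (39.9%, 37.0% to 43.0%). The Cd33 share was 22.6%, 36.4%, 18.9% and 40% in anti-CD115 replicates 1 to 4, and 37.8% to 42.9% in isotype control glands, so that replicate 4 lay within the control range and the groups overlapped. Siglech made up 31.4% (24.1% to 39.4%) of the pooled reads in anti-CD115 glands and 22.2% (19.7% to 24.8%) in isotype control glands. Across single treated glands the Siglech share ran between 13.6% in replicate 2 and 43.4% in replicate 1, which spans the control range of 19% to 23.6%. Siglece held 17.6% of the pooled reads in anti-CD115 glands and 17.3% in isotype control glands, and Siglec1 held 12.4% in anti-CD115 glands and 13.3% in isotype control glands. Cd22 held 12.4% (7.64% to 18.7%) in anti-CD115 glands and 7.27% (5.78% to 9%) in isotype control glands, with 31.8% in anti-CD115 replicate 2. The intervals cover counting error only, and these shares come from the contrast that chose the genes.

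**Figure D3:**
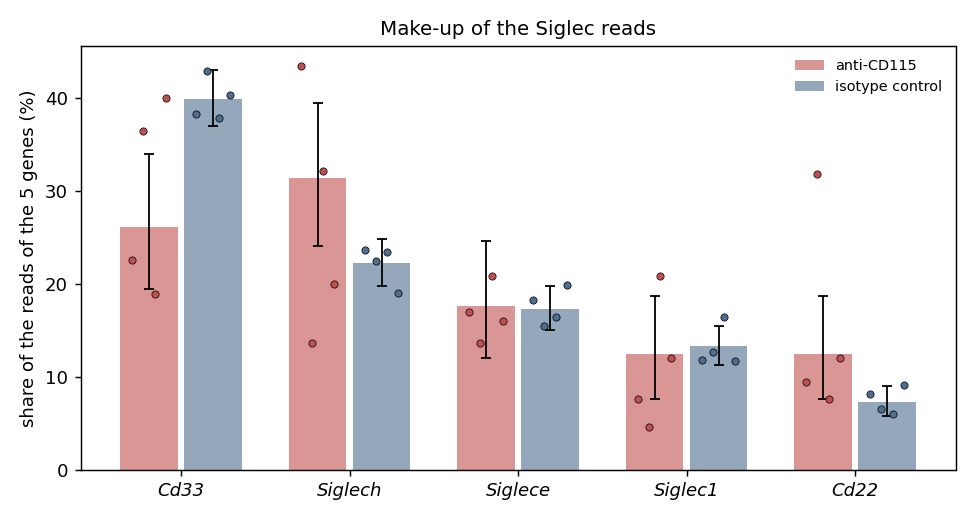
Share of the reads of the 5 Siglec genes taken by each gene (percent), anti-CD115 left and isotype control right, with bars for pooled reads, error bars for exact binomial 95% intervals and points for the 4 libraries of each group. Cd33 takes 26.1% of the pooled reads in anti-CD115 glands and 39.9% in isotype control glands, while single anti-CD115 libraries scatter widely for Cd33, Siglech and Cd22.

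Beside the Siglecs, macrophage markers moved in the same libraries. The 12 markers summed to 46.5, 16.4, 51.8 and 30.8 CPM in anti-CD115 replicates 1 to 4, against 191, 243, 275 and 226 CPM in isotype control replicates 1 to 4. Per 100 CPM of these markers the 5 Siglecs gave 4.00, 4.78, 3.01 and 3.42 CPM in anti-CD115 glands, against 4.83, 4.64, 3.08 and 3.58 CPM in isotype control glands. The 2 ranges overlapped almost whole. Of the 12 markers, 10 fell, 0 rose, and the median log2 change was -2.87, against 0.00 over all genes tested. The 10 were Adgre1 (-3.33), C1qa (-3.27), Aif1 (-3.25), Csf1r (-3.01), C1qc (-2.95), C1qb (-2.93), Fcgr1 (-2.81), Laptm5 (-2.56), Mpeg1 (-2.32) and Cd68 (-2.30), and C1qc missed the threshold once anti-CD115 replicate 4 was left out (adjusted p = 0.0643). The other 2, Mertk (-0.26, edgeR adjusted p = 0.705) and Itgam (-1.89, 0.199), did not pass, though DESeq2 called Itgam lower. The part of macrophage number in the Siglec values was not tested.

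Markers of narrower macrophage types moved too. Microglia markers fell for 4 of 8 genes, 0 rose, and their sum was 110 to 126 CPM in anti-CD115 glands, against 160 to 195 CPM in isotype control glands. They included Cx3cr1 (-2.75), Gpr34 (-2.34) and P2ry12 (-2.32), and the median of the list was -0.66. Not called were Tmem119 (-0.67), Olfml3 (-0.21), Slc2a5 (-0.03) and Sall1 (0.11), though DESeq2 called Tmem119 lower. Calls ended without anti-CD115 replicate 4 for Cx3cr1 (edgeR adjusted p = 0.0539), Gpr34 (0.0997) and P2ry12 (0.103). Gpr34 also missed the threshold on leaving out anti-CD115 replicates 2 or 3 (0.129, 0.0845) or isotype control replicates 2, 3 or 4 (0.106, 0.0811, 0.0901), and so did P2ry12 (0.107, 0.122, then 0.0720, 0.0649, 0.0566). P2ry12 missed it narrowly with limma-voom, too (adjusted p rounding to 0.05), and both missed it without a sex term (0.0527 for Gpr34, 0.186 for P2ry12) and with a replicate block (0.113 for Gpr34, 0.0991 for P2ry12). Without anti-CD115 replicate 1 or isotype control replicate 1, the females, the log2 change of P2ry12 was -3.09, which repeats the contrast of males alone. Border macrophage markers fell for 2 of 6 genes tested of 8 listed, Mrc1 (-2.60) and Ms4a7 (-3.14), with sums of 9.55 to 16 CPM in anti-CD115 glands and 19.2 to 25.2 CPM in isotype control glands. The others tested, F13a1 (-1.43), Lyve1 (-0.38), Cd163 (-0.19) and Cbr2 (0.06), were not called.

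For plasmacytoid dendritic cells, where Siglech is also known, 5 of 8 markers were tested and 0 passed in either direction, with 1 at an unadjusted p under 0.05 and 0 called by DESeq2. Their sum was 225 to 253 CPM in anti-CD115 glands and 198 to 244 CPM in isotype control glands, most of it from Tcf4, at 157 ± 9.84 CPM in anti-CD115 glands and 144 ± 25.0 CPM in isotype control glands (SD, n = 4 each), and from Pacsin1. The smallest p was that of Pacsin1 (log2 change 0.18, SE 0.08, edgeR adjusted p = 0.439), while Spib, a transcription factor of these cells, stood at 0.305 ± 0.172 CPM in anti-CD115 glands and 0.433 ± 0.287 CPM in isotype control glands (SD, n = 4 each). Of the 5 tested, Pacsin1 (0.18) and Tcf4 (0.12) lay above 0 on the log2 scale. Klk1 (-0.36), Bst2 (-0.39) and Spib (-0.49) lay below 0, and the list median was -0.36. The chemokine receptor Ccr9 had 18 reads in anti-CD115 glands and 23 in isotype control glands and was not tested.

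B cell markers, set beside Cd22, fell for 1 of 4 genes tested of 8 listed and rose for 0. That gene was Ighm, the IgM heavy chain (2.30 ± 0.584 CPM in anti-CD115 glands and 5.98 ± 1.23 CPM in isotype control glands, SD, n = 4 each; log2 change -1.36, SE 0.18, edgeR adjusted p = 0.00522). The other 3 tested did not pass: Cd79a gave 0.09, Cd79b gave -0.48 and Pax5 gave 0.47 on the log2 scale. Ms4a1, which encodes CD20, had 43 reads in anti-CD115 glands and 23 in isotype control glands. It had more reads in treated glands than in controls and was too low to be tested. The list summed to 7.08 to 11.6 CPM in anti-CD115 glands and 10.8 to 20.4 CPM in isotype control glands.

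Neutrophil, monocyte and eosinophil markers, whose cells carry Siglece or Siglecf, gave 0 calls, with 4 of 7 neutrophil, 3 of 5 monocyte and 1 of 5 eosinophil markers tested. The smallest p values were those of Mmp8 among neutrophil markers (log2 change -0.54, edgeR adjusted p = 0.379) and Ccr2 among monocyte markers (-1.11, 0.264). The other neutrophil markers tested gave 0.76 for S100a8, 0.40 for Ngp and -0.04 for S100a9. List medians were 0.18 for neutrophil and -0.62 for monocyte markers. Epx was the lone eosinophil marker tested, at a log2 change of 0.00 (SE 0.27, edgeR adjusted p = 1) whose sign turned with the processing. Neutrophil markers summed to 7.87 to 10.5 CPM in anti-CD115 glands and 5.84 to 15.3 CPM in isotype control glands, and monocyte markers to 3.32 to 4.50 CPM in anti-CD115 glands and 4.62 to 9.66 CPM in isotype control glands. Eosinophil markers summed to 1.14 to 2.29 CPM in anti-CD115 glands and 1.29 to 2.10 CPM in isotype control glands. At an unadjusted p under 0.05 stood 1 neutrophil, 1 monocyte and 0 eosinophil markers, and DESeq2 called 0 in each list.

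The 4 other Siglec genes listed gave few reads, apart from Mag. Siglecf, a receptor of eosinophils, had 2, 2, 0 and 2 reads in anti-CD115 replicates 1 to 4, against 2, 0, 9 and 0 reads in isotype control replicates 1 to 4. Siglecg, of B cells, had 0, 1, 0 and 2 reads in anti-CD115 glands, against 0, 2, 0 and 1 reads in isotype control glands. Siglec15, known from osteoclasts, had 0 reads in all 4 anti-CD115 libraries, against 10, 0, 1 and 0 reads in isotype control replicates 1 to 4, with nearly all of them in the control female. These 3 did not pass the filter of 0.362 CPM in 4 libraries and were not tested. The floor of 3 counts is worth up to 0.126 CPM, and the exact Poisson 95% interval for 0 reads in a library reaches up to 0.155 CPM. Mag, the myelin-associated glycoprotein of glia, was the lone further Siglec tested. It stood at 0.947, 0.607, 3.79 and 0.547 CPM in anti-CD115 replicates 1 to 4, against 1.18, 1.22, 1.90 and 0.384 CPM in isotype control replicates 1 to 4. Anti-CD115 replicate 3 stood far above the other treated glands, and the groups overlapped (log2 change 0.33, SE 0.63, edgeR adjusted p = 0.893, turning to -0.80 with adjusted p = 0.586 without that library). Mag lies 18.8 kb from Cd22 on chromosome 7. Markers of myelinating glia summed to 91.2, 57.2, 237 and 55.4 CPM in anti-CD115 replicates 1 to 4, against 62.9 to 86.6 CPM in isotype control glands, so they were high in the same library. Of 5 of these markers tested 0 passed in edgeR, with 1 at an unadjusted p under 0.05, and DESeq2 called 0 of the 4 for which it gave an adjusted p. On unfiltered counts Mobp, a myelin protein gene, was called higher. The markers' part in the Mag value was not tested.

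Downstream of the inhibitory tail, 2 of 9 listed signalling genes fell and 0 rose, with a median log2 change of -0.09. Among those that fell, Inpp5d, the leukocyte phosphatase SHIP1, stood at 3.51 ± 0.322 CPM in anti-CD115 glands and 7.03 ± 1.25 CPM in isotype control glands (SD, n = 4 each; log2 change -1.0, edgeR adjusted p = 0.0198). The call of Inpp5d ended on leaving out any library other than isotype control replicate 4, with adjusted p of 0.0510, 0.0836, 0.0803 and 0.0545 without anti-CD115 replicates 1 to 4 and 0.0578, 0.0650 and 0.0534 without isotype control replicates 1 to 3. It also ended in males alone (0.0546), with a replicate block (0.0693) and on log2(FPKM + 1) or log2(FPKM + 0.1) (0.0567 and 0.0630). The phosphatases that ITIMs recruit were close to their control level: Ptpn6, which encodes SHP-1, gave a log2 change of -0.05 and Ptpn11, which encodes SHP-2, gave 0.01. Neither passed, nor did the kinases Lyn (-0.18), Fgr (-1.20, edgeR adjusted p = 0.223), Fyn (0.22) and Csk (-0.08) or the suppressor Socs3 (-0.09).

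On the DAP12 side, 2 of 4 genes tested of 5 listed fell and 0 rose, with a median log2 change of -1.69. Tyrobp, the DAP12 adaptor itself, stood at 1.25 ± 0.580 CPM in anti-CD115 glands and 7.04 ± 1.66 CPM in isotype control glands (SD, n = 4 each; log2 change -2.52, SE 0.30, edgeR adjusted p = 0.0025). Syk, the kinase that DAP12 engages, stood at 2.02 ± 0.429 CPM in anti-CD115 glands and 4.99 ± 1.5 CPM in isotype control glands (SD, n = 4 each; log2 change -1.30, edgeR adjusted p = 0.0404). Trem2, another receptor that pairs with DAP12, gave a log2 change of -2.09 and did not pass in edgeR (adjusted p = 0.0786), though DESeq2 called it. Plcg2 gave 0.11 and did not pass, and the related adaptor Hcst was not tested. The call of Syk held without either female and ended on leaving out any other library, at adjusted p of 0.107, 0.145 and 0.153 without anti-CD115 replicates 2, 3 and 4 and 0.0763, 0.0808 and 0.0923 without isotype control replicates 2, 3 and 4. It also ended with the stricter filter (0.0506), with a replicate block (0.122) and on log2(FPKM + 1) or log2(FPKM + 0.1) (0.136 and 0.104).

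Among receptors of other families with ITIM tails, 8 were listed, 4 were tested, 2 fell and 0 rose, with a median log2 change of -1.55. The collagen receptor Lair1 stood at 1.29 ± 0.275 CPM in anti-CD115 glands and 4.94 ± 0.784 CPM in isotype control glands (SD, n = 4 each; log2 change -1.92, edgeR adjusted p = 0.00201). The myeloid lectin Clec12a stood at 0.633 ± 0.162 CPM in anti-CD115 glands and 1.54 ± 0.296 CPM in isotype control glands (SD, n = 4 each; log2 change -1.29, edgeR adjusted p = 0.0395). That call ended under limma-voom (adjusted p = 0.0575), without a sex term (0.0580), with a replicate block (0.118), in males alone (0.157), on log2(FPKM + 1) or log2(FPKM + 0.1) (0.148 and 0.0858) and on leaving out any of the 8 libraries in turn, at adjusted p between 0.0622 and 0.173. Cd300a gave a log2 change of -1.82 and did not pass in edgeR (adjusted p = 0.0786) but did in DESeq2, and Sirpa, the receptor for CD47 that neurons also carry, gave -0.05.

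Genes that make or remove sialic acid, the sugar that Siglecs bind, gave no call in edgeR. Of 6 tested genes of sialic acid synthesis, 19 tested sialyltransferases and 4 tested sialidase genes, 0 passed edgeR's test in either direction. DESeq2 called 0 in each of these lists, and at an unadjusted p under 0.05 stood 0, 5 and 1 of them, with list medians of -0.10, 0.11 and -0.09 on the log2 scale. The smallest p values belonged to Cmas, which activates sialic acid for transfer (log2 change -0.14, edgeR adjusted p = 0.632), to the sialyltransferase St6gal2 (0.76, 0.294) and to the sialidase Neu2 (-0.99, 0.380). On unfiltered counts St3gal1 was called lower. St6gal1, which makes the linkage that Cd22 binds, stood at 120 ± 6.49 CPM in anti-CD115 glands and 125 ± 29.2 CPM in isotype control glands (SD, n = 4 each).

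Of 5 glycoproteins listed as sialylated Siglec ligands, 3 fell and 0 rose. All 3 are leukocyte surface proteins: Spn, or CD43 (log2 change -1.92, edgeR adjusted p = 0.00395), Ptprc, or CD45 (-1.53, 0.00217), and Selplg, the selectin ligand PSGL-1 (-1.47, 0.0155). Selplg missed the threshold once anti-CD115 replicate 4 (adjusted p = 0.0664) or isotype control replicate 2 (0.0545) was left out. Cd24a, a small sialylated protein of many cell types, stood at 164 ± 18.7 CPM in anti-CD115 glands and 129 ± 16.4 CPM in isotype control glands (SD, n = 4 each; log2 change 0.35, edgeR adjusted p = 0.306), and was called higher on unfiltered counts. Muc1 gave 0.16 and did not pass.

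**Figure D4:**
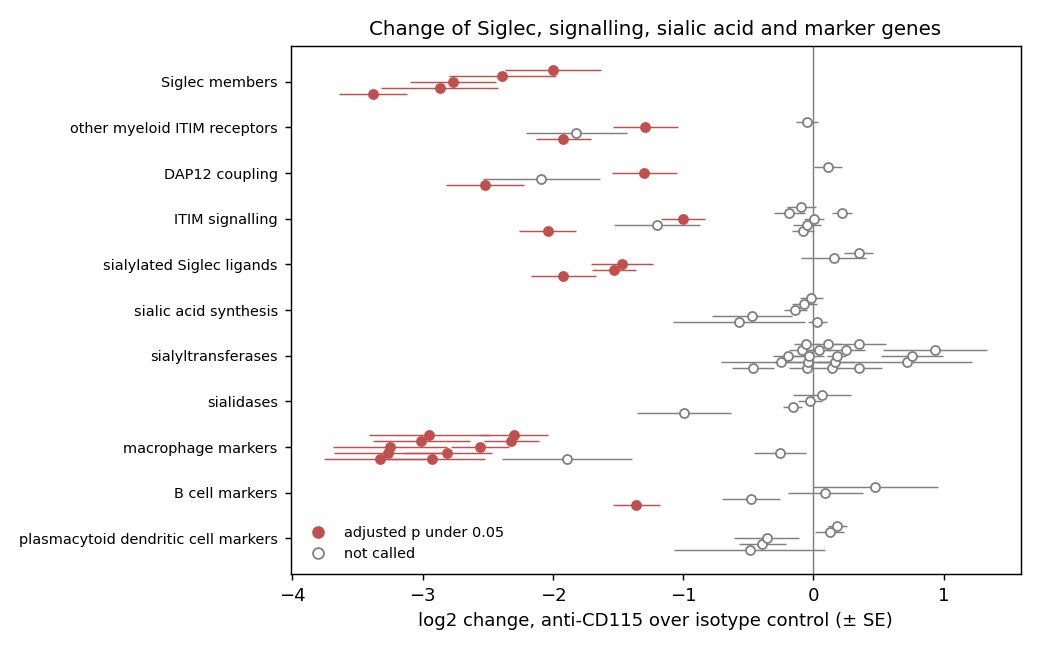
Log2 change of anti-CD115 over isotype control with its SE for each tested gene of 11 lists, filled where the edgeR adjusted p is under 0.05 and open otherwise. The 5 Siglec genes lie between -3.38 and -2.0 with most macrophage markers, whereas the sialic acid synthesis genes, sialyltransferases and sialidases are all open points.

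Sex was the other labelled condition and had not been used to choose the genes. Of the 5 Siglecs 0 passed the test of female against male, where 0.491% of the genes tested did, 0 had an unadjusted p under 0.05, and DESeq2 gave 0 on both counts. The log2 ratio of female over male was 0.69 for Siglech (SE 0.45, edgeR adjusted p = 0.739), 0.26 for Siglece (SE 0.36, 0.924) and 0.17 for Cd22 (SE 0.41, 0.960). It was 0.05 for Cd33 (SE 0.29, 0.983) and -0.22 for Siglec1 (SE 0.50, 0.958). With 1 female per group these errors are wide, and a p that misses the threshold does not show equal levels.

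The share of the control level left after treatment was also set out by sex. Siglech retained 36.9% in the female pair and 13.5% in males, Cd33 retained 11.9% in the female pair and 8.87% in males, and Siglece 18.8% in the female pair and 12.6% in males. Siglec1 retained 12.8% in the female pair and 12.9% in males, and Cd22 23.2% in the female pair and 25.0% in males. None of these differences passed the test of the sex by treatment term, which called 0.0395% of genes tested. The nearest was Siglech (interaction 1.37 on the log2 scale, SE 0.83, unadjusted p = 0.131, edgeR adjusted p = 1), and DESeq2 also called 0 of 5. That term assumes that females vary as males do.

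The 5 profiles were compared with each other and with all genes of at least 1 CPM on average, by the root mean square distance between centred log2(CPM + 0.5) values over the same 8 libraries, so that the treatment difference enters every distance. Among the 5, Siglece and Siglec1 were closest at 0.19 and Cd33 and Cd22 farthest apart at 0.76. Nearest to Cd33 were Slc11a1 (0.23), Spi1 (0.24), which encodes PU.1, and Il10ra (0.28), against a median of 1.17 over 15477 genes. Nearest to Siglech were the purinergic receptor P2ry13 (0.14), Slco2b1 (0.18) and Hpgds (0.19), against a median of 0.87. Among the 3 genes nearest to Siglece were the co-stimulator Cd86 (0.12) and the RNA sensor Tlr7 (0.19), against 0.81, and among the 3 nearest to Siglec1 were Selplg (0.14) and Bin2 (0.15), against 0.75. Cd22 lay nearest to Snx20 (0.16), Neurl3 (0.18) and Tnfsf13b (0.18), which encodes the B cell survival factor BAFF, against 0.46. The added 0.5 exceeded the mean CPM of each of the 5 Siglecs in anti-CD115 glands, which shrinks their changes by construction. A short distance is thus not an equal log2 change. Each near gene named fell less than its Siglec. Snx20 gave a log2 change of -0.63 and Tnfsf13b -1.05, against -2.0 for Cd22, and Selplg gave -1.47, against -2.87 for Siglec1. Slc11a1 was closer, at -3.21 against -3.38 for Cd33. These distances are a description over 8 libraries in 2 groups.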

How the data were processed

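Pituitary RNA of 8 mice was sequenced, 4 per group. The submitters' processing notes name featureCounts 1.5.0-p3, HISAT2 2.0.5 and StringTie 1.3.3b and the build GRCm38. The authors deposited unnormalised whole-number counts per gene, and the deposited FPKM table holds the same genes divided by library size and gene length. Whether strand or multi-mapped reads were used in counting is not given in the sources used here.

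Counts were fitted in R 4.3.3 with edgeR 4.0.16 (filterByExpr on treatment, TMM, quasi-likelihood F test, sex as covariate) over 17723 genes, and p-values were adjusted by Benjamini and Hochberg over all of them, with calls at 0.05. Sex and the sex by treatment term were tested likewise. P-values measure the spread between these mice. Alternatives were edgeR with RLE size factors, DESeq2 1.42.0, limma 3.58.1 (voom, and log2 of FPKM plus 1 or 0.1), no filter, a stricter filter of 1 CPM in 4 libraries, no sex term, a replicate block, males alone and each library left out. The fit was tested on simulated counts first.

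The 5 Siglec genes, the gene lists and the tests were chosen with earlier results of these data known. Named genes were the 5 Siglecs, each listed gene that passed the treatment test, the smallest p of lists without a call, the other Siglec genes, and the 3 nearest profiles of each of the 5, although some genes under this rule are not reported here. Other genes given with values were chosen after their values were seen. Libraries held 23289819 to 36218096 counts, floors and intervals cover counting error only, and no library differed from a replicate by as little as sampling noise (lowest chi-square per degree of freedom 15.9). Promoters came from RefSeq (GRCm38.p6) and coding sequences from GENCODE M21. Of 143 listed genes 143 were found by symbol, and St6galnac2, listed on 2 rows, was taken from the row with more counts.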

Additional observations from a re-analysis of the deposited data

Results flagged for a closer look

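In 12 groups of 4 libraries, the CPM of the 5 Siglecs and Mag in each treatment group, a library that stood apart from the other 3 was looked for with Dixon's 95% limit of 0.829, which chance passes in about 1 of 20 groups. It was passed in 2 groups. Cd22 in isotype control replicate 3 stood at 0.504 CPM, against 0.734, 0.735 and 0.756 CPM in the other isotype control libraries. Mag in anti-CD115 replicate 3 stood at 3.79 CPM, against 0.547, 0.607 and 0.947 CPM in the other anti-CD115 libraries.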

How the results depend on the processing

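The fall of Cd33 and Siglece passed the threshold in all 19 alternatives run, with adjusted p up to 0.0258 and 0.0170. All 19 refit the contrast known when the genes were chosen, so they show only how calls depend on processing. The falls of Siglech, Siglec1 and Cd22 kept their direction wherever they were fitted, but their adjusted p was over 0.05 in 6 of 19, 5 of 18 and 12 of 18 alternatives, reaching 0.0876, 0.107 and 0.289. The number of the 5 called was thus 3 with the stricter filter, which removed Siglec1 and Cd22 before testing, 3 in males alone, 3 with log2(FPKM + 1), 2 with the same and no filter, and 2 to 5 on leaving out a library. With males alone Siglech gave -2.81. With sex in the fit and 1 female per group, leaving out either female repeats the contrast of males alone. Those alternatives are counted separately here but are not separate checks. On log2(FPKM + 1), filtered or not, the changes were -0.49 for Cd33, -0.52 for Siglech, -0.73 for Siglece, -0.19 for Siglec1 and -0.14 (-0.135) for Cd22. With a pseudocount of 0.1 they were -1.96, -1.76, -2.14, -1.14 and -0.82 (-0.815). A pseudocount near or above the FPKM of a gene shrinks its change by construction. Leaving out a library gave -3.50 to -3.21 for Cd33, -2.81 to -2.09 for Siglech, -3.06 to -2.54 for Siglece, -3.55 to -2.53 for Siglec1 and -2.28 to -1.85 for Cd22. Among other listed genes that were called, adjusted p was over 0.05 in 15 of 19 alternatives for Clec12a, 12 for Inpp5d, 11 for Syk, 10 for P2ry12, 9 for Gpr34, 3 for Selplg and 2 for C1qc, and in 1 each for C1qa, C1qb, Fcgr1, Cx3cr1 and Mrc1.

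Over all genes the treatment calls were 154, against 268 with DESeq2, 487 without a filter, 67 with unfiltered log2(FPKM + 1) and 89 to 120 on leaving out a library, lowest without anti-CD115 replicate 4. The sex calls were 87, against 336 with DESeq2, 601 without a filter and 46 to 92 on leaving out a library. The interaction calls were 7, against 42 with DESeq2, 168 without a filter and 2 to 6 on leaving out a library. The log2 change of Mag ran between -0.795, without anti-CD115 replicate 3, and 0.677 on leaving out a library. That of Epx, 0.00 in the reported fit, was -0.0244 with limma-voom, -0.00375 with the stricter filter, -0.0229 with the replicate block, -0.0344 in males alone, -0.000161 on log2(FPKM + 1) with and without a filter and -0.0159 with a pseudocount of 0.1. It ran between -0.192 and 0.146 on leaving out a library. Where no construction is named, the cause was not tested.

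The replicate numbers were not taken to pair libraries, since deviations of same-numbered libraries correlated at 0.36, -0.101, 0.0488 and 0.266, and not every library correlated best with its own number. With the replicate block 118 genes and 3 of the 5 Siglecs were called (Siglech adjusted p = 0.0634, Cd22 0.0630). Depth limits all 5 Siglecs in treated glands. Reads a library were 1 to 11 for Siglec1, 3 to 11 for Siglece and 3 to 7 for Cd22. They were 8 to 12 for Cd33 and 3 to 23 for Siglech.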
